A study of Mus musculus with 6 samples.

Results

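The collagen genes described here are the genes whose array name is Col, a number, the letter a and a number, which is how mice name the genes for collagen chains. Of 41174 non-control probes on the array, 80 carried such a name, and they stood for 41 gene names. Another 4 probes named Col4a3bp belong to a gene that encodes no collagen and were left out, and 4 probes of genes now called Col6a4, Col6a6 or Col26a1 carry other names in the files and fall outside the naming rule. The names fell into 11 fibrillar, 6 basement membrane and 9 fibril-associated genes and 15 of other types.

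Pancreatic islets of 2 obese mouse strains were measured on 1-colour oligonucleotide arrays, in which a Cy3 dye reports how much of each transcript binds its probe. NZO islets came from NZO/HiBomDife mice, a strain labelled diabetes-prone, and B6-ob/ob islets came from C57BL/6.V-Lepob/ob mice, a strain labelled diabetes-resistant that carries the ob allele of the leptin gene and makes no working leptin. All mice were male, ate a high-fat diet free of carbohydrate to the age of 18 weeks and were then given carbohydrate, and islets were collected 48 h later. Each strain has 3 samples, numbered 10, 11 and 12 for NZO and 4, 5 and 6 for B6-ob/ob. Strain background and the ob allele differ together between these groups and cannot be told apart, and islets from before the diet change were not analysed here. Whether a sample holds islets of 1 animal or of several is not stated in the labels, so p-values reflect how far these samples vary, which may be technical variation.

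Collagens are extracellular matrix proteins built from chains that wind into a triple helix, in which glycine takes every position that faces the core of the helix. Fibrillar collagens form the cables of connective tissue, basement membrane collagens form sheets under epithelia and around vessels, and fibril-associated collagens sit on the surface of fibrils. In the pancreas, stellate cells and fibroblasts are known sources of fibrillar collagen, and islet endothelial cells are known to lay down the basement membrane that endocrine cells rest on.

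The glycine repeat is written into some of the probes themselves. The 3 probes below are shown because they are the only ones of the array's 41174 in which the letters GGN, a glycine codon, recur at every ninth base across the whole probe on its own strand, and all 3 belong to the 80 collagen probes (3.75% of them). Capitals mark those codons, 6 in Col11a2, 6 in Col5a1 and 7 in Col5a3. The mm9 interval of each is longer than the probe's 60 bases.
Col11a2: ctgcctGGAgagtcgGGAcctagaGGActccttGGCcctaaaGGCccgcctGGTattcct
Col5a1: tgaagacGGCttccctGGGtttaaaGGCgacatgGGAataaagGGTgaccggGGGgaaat
Col5a3: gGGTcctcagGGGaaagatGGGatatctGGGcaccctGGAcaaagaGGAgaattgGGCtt
The Col11a2 probe maps to chr17:34189287-34189453 on the plus strand and was well above background on 0 NZO and 3 B6-ob/ob arrays. The Col5a1 probe maps to chr2:27842243-27844666 on the plus strand and was well above background on 3 NZO arrays and 1 B6-ob/ob array. The Col5a3 probe maps to chr9:20590066-20590795 on the minus strand and was well above background on none. Values for Col5a3 below therefore come from another probe of that gene, and those of the Col11a2 and Col5a1 probes are given with the other probe pairs.

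The strain of each array was taken from the label of its scanner file. Probes for Ifi202b and H2-Ea, a pair of genes known to be silent in the C57BL/6 background, were well above background on all 3 NZO arrays and on 0 of 3 B6-ob/ob arrays. In the deposited table of processed values, in contrast, each of the 6 columns followed an array of the other strain, with correlations of 0.944 to 0.971 over 33068 probes centred on their means, against -0.633 to -0.402 with the array of its own label. These correlations are across probes and describe how the files match. Differences are given as NZO minus B6-ob/ob on the log2 scale by the scanner labels, the opposite direction to the deposited table. The scanner software called 23617 to 24710 probes per array well above background and none of the non-control probes saturated, and precision is limited by there being 3 arrays a strain.

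Collagen transcripts were higher in NZO islets across the fibrillar and the other types. Of 80 probes, 43 passed the filter, a call of well above background on 3 or more of 6 arrays, while 30 had that call on all 6 arrays and 26 on none. The scanner software called 44, 43 and 44 collagen probes well above background on NZO arrays 10, 11 and 12, against 41, 34 and 33 on B6-ob/ob arrays 4, 5 and 6. With each gene read by its brightest kept probe, 29 of 41 gene names were tested. Of these, 18 (62.1%) were higher in NZO at an adjusted p under 0.05 and 0 were lower, and 0 were lower at an unadjusted p under 0.05 as well. Among all 16417 genes or unnamed probes tested, 13.2% were higher and 9.00% were lower. Each p-value is from the moderated test of limma with Benjamini-Hochberg adjustment over all 16417.

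The 3 NZO arrays lay wholly above the 3 B6-ob/ob arrays at 19 of the 29 collagen genes and wholly below at 0, against 20.7% and 20.4% of all genes tested. The median difference of the 29 was 1.74, and that of all genes tested was -0.03. A gene that passed the background filter through 1 strain alone was bound to differ. The same calls were therefore read over genes well above background on all 6 arrays. There, 15 of 25 collagen genes were higher, against 1706 of all 14796 such genes. The plot of collagen levels by array shows each tested gene. In bulk islet RNA, more cells of a type and more RNA per cell cannot be told apart.

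**Figure D1:**
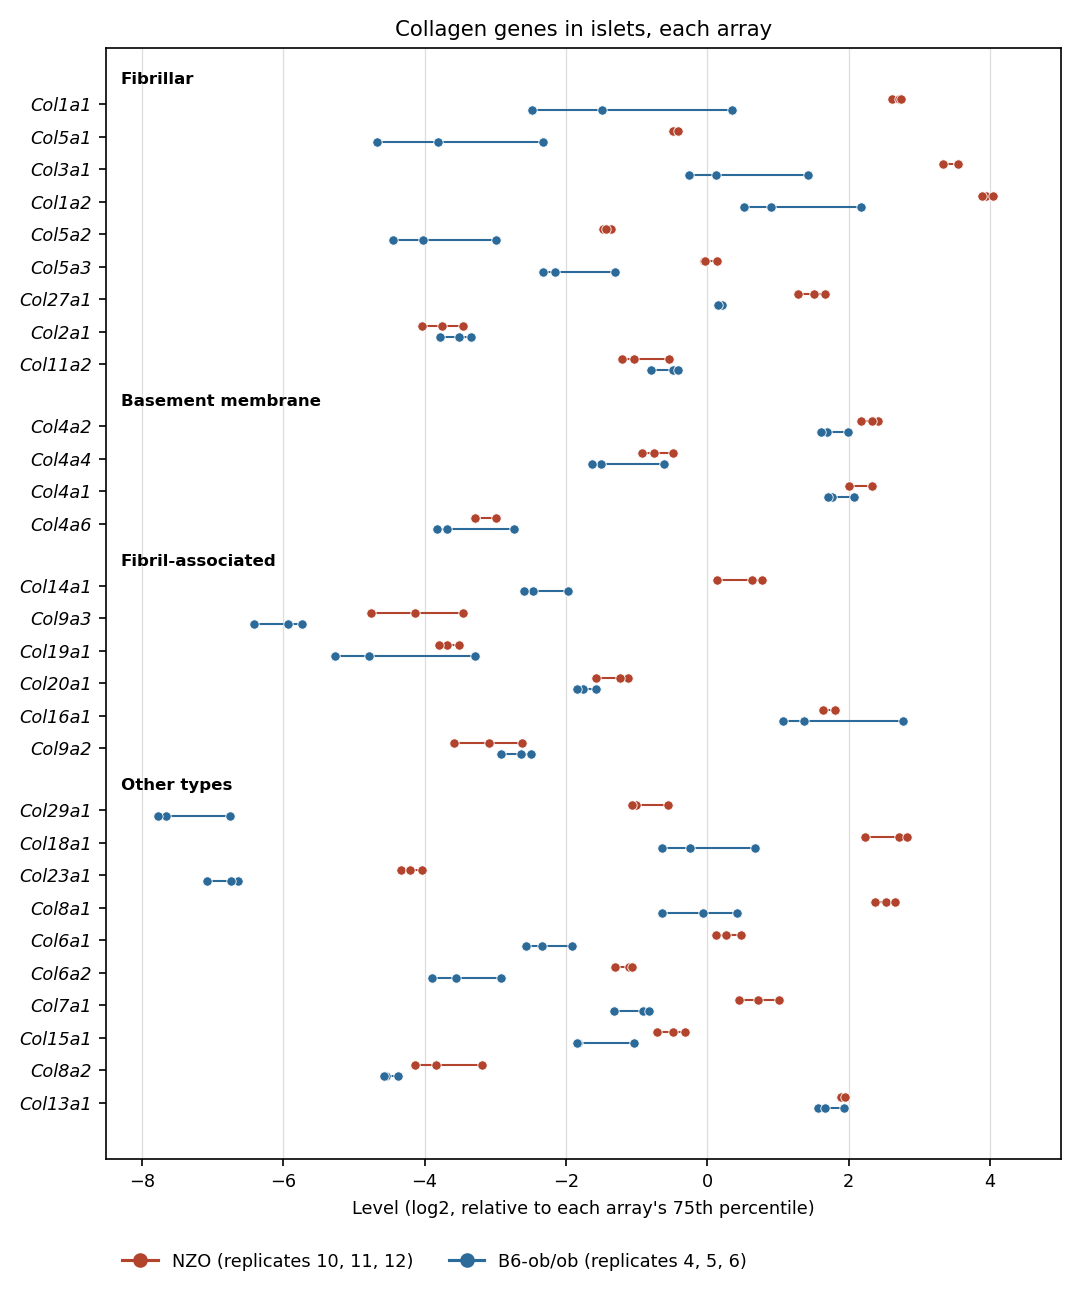
Level of each tested collagen gene on each array, as log2 intensity relative to the array's 75th percentile, with genes grouped by class and ordered by difference. Points are single arrays and lines join the lowest and highest array of a strain. NZO points lie to the right of all B6-ob/ob points at 19 of 29 genes, and levels of different genes come from different probes and are not comparable.

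Among fibrillar collagens, 9 of 11 genes were tested and 7 were higher in NZO, against 13.2% of all genes tested. The median difference over the 9 was 2.39. Col1a1 and Col1a2 encode the chains of type I collagen, the main fibril of connective tissue. Col1a1 stood at 2.61, 2.71 and 2.74 in NZO islets and at 0.35, -1.49 and -2.48 in B6-ob/ob islets. Col1a2 stood at 3.94, 3.89 and 4.04 in NZO islets and at 2.17, 0.90 and 0.52 in B6-ob/ob islets. Col3a1, whose product forms type III collagen and often shares fibrils with type I, stood at 3.55, 3.33 and 3.55 in NZO islets and at 1.42, 0.12 and -0.26 in B6-ob/ob islets. For all 3 genes the NZO arrays were close together and above every B6-ob/ob array, and B6-ob/ob replicate 4 was the nearest to them. Mean levels were 2.69 ± 0.07 in NZO and -1.21 ± 1.44 in B6-ob/ob islets for Col1a1 (SD, n = 3 each). The difference was 3.89 ± 0.67 (SE; limma adjusted p = 0.00983), or 14.9-fold. It was 4.67 without B6-ob/ob replicate 4 and 3.25 without B6-ob/ob replicate 6. Col1a2 differed by 2.76 ± 0.41 (limma adjusted p = 0.00588), or 6.78-fold. Col3a1 differed by 3.05 ± 0.42 (limma adjusted p = 0.00461), or 8.26-fold.

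Col5a1, Col5a2 and Col5a3 encode chains of type V collagen, which starts fibrils and limits their width. Col5a1 stood at -0.48, -0.48 and -0.42 in NZO islets and at -2.32, -3.81 and -4.68 in B6-ob/ob islets. Col5a2 stood at -1.37, -1.48 and -1.43 in NZO islets and at -2.99, -4.02 and -4.44 in B6-ob/ob islets. Col5a3 stood at -0.05, -0.04 and 0.14 in NZO islets and at -1.30, -2.16 and -2.33 in B6-ob/ob islets. The pattern was that of the type I and III genes, with tight NZO values above scattered B6-ob/ob values. The differences were 3.14 ± 0.56 for Col5a1 (SE; limma adjusted p = 0.0111), 2.39 ± 0.36 for Col5a2 (limma adjusted p = 0.00603) and 1.95 ± 0.28 for Col5a3 (limma adjusted p = 0.00489). Without B6-ob/ob replicate 4, Col5a1 differed by 3.78. With normexp background correction and quantile normalisation together, Col5a1 differed by 1.86 and Col5a2 by 1.11.

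Col27a1, a fibrillar collagen known mainly from cartilage, stood at 1.28, 1.66 and 1.51 in NZO islets and at 0.21, 0.20 and 0.15 in B6-ob/ob islets. Here the B6-ob/ob arrays were the tighter group, and the strains did not overlap. The difference was 1.30 ± 0.13 (SE; limma adjusted p = 0.00153), or 2.46-fold. A further Col27a1 probe, below the filter, was well above background on 0 NZO and 2 B6-ob/ob arrays. Col2a1 and Col11a2, which encode chains of cartilage collagens, were not called. Col11a2 stood at -1.21, -0.54 and -1.04 in NZO islets and at -0.80, -0.49 and -0.42 in B6-ob/ob islets. Col2a1 stood at -3.75, -3.45 and -4.04 in NZO islets and at -3.35, -3.51 and -3.78 in B6-ob/ob islets. Both overlapped between strains, with differences of -0.36 ± 0.21 for Col11a2 (SE; limma adjusted p = 0.284) and -0.20 ± 0.20 for Col2a1 (limma adjusted p = 0.521). Col11a1 and Col24a1 were well above background on at most 1 array and were not tested.

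Of 6 basement membrane collagen genes, 4 were tested and 1 was higher in NZO, against 13.2% of all genes tested. The median difference over the 4 was 0.46. With the mean of a gene's kept probes in place of the brightest, 3 of the 4 were higher, against 12.8% of all genes. The classes were not tested against each other. Col4a1 and Col4a2 encode the chains that together form the common type IV network, and they lie head to head on chromosome 8. Their promoter windows, taken from RefSeq on GRCm38.p6 and running from 250 bases before to 50 bases after the transcript start, are shown because the starts are 21 bases apart and the windows overlap by 78 bases (chr8:11312777-11312854). Capitals mark the shared stretch, which is read on opposite strands by the 2 genes. Col4a1 starts at 11312826 on the minus strand and Col4a2 at 11312805 on the plus strand, so the annotated transcripts overlap at their 5' ends.
Col4a1: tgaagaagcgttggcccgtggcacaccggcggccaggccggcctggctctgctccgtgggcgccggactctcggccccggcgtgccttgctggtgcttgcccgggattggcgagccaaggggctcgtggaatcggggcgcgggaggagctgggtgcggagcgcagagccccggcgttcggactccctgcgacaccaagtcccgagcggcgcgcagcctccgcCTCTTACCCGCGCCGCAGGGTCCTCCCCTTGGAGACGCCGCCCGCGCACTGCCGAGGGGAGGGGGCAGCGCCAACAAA
Col4a2: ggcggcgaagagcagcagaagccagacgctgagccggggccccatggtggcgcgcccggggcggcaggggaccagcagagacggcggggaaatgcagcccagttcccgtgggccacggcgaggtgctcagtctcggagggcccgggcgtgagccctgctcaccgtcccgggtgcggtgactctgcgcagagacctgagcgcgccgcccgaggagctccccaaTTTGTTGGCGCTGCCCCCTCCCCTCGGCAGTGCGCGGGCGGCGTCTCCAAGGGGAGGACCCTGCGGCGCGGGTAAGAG
The Col4a1 window is chr8:11312777-11313076 on the minus strand and the Col4a2 window is chr8:11312555-11312854 on the plus strand. Their GC content is 74.0% and 73.7%, and that of the shared stretch is 73.1%, against a median of 52.7% over all windows of the same length. A window was matched for 33 of 41 collagen symbols, 36 windows in all. Among these windows, Col4a1 and Col4a2 were the only pair transcribed in opposite directions from starts within 1000 bases. Genes without a window and other transcript starts were not searched, so further such pairs among collagen genes may exist.

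Col4a1 stood at 2.33, 2.01 and 2.33 in NZO islets and at 2.08, 1.76 and 1.70 in B6-ob/ob islets. Col4a2 stood at 2.42, 2.17 and 2.33 in NZO islets and at 1.99, 1.69 and 1.60 in B6-ob/ob islets. The strains overlapped for Col4a1 and did not for Col4a2, and in both genes the lowest NZO array was replicate 11 and the highest B6-ob/ob array was replicate 4. The difference was 0.38 ± 0.16 for Col4a1 (SE; limma adjusted p = 0.146) and 0.54 ± 0.15 for Col4a2 (limma adjusted p = 0.0435), or 1.30-fold and 1.46-fold. The Col4a2 call was lost when any single array other than B6-ob/ob replicate 4 was left out, with differences of 0.46 to 0.61 and adjusted p of 0.0832 to 0.155. A fixed slide block also ended the call, at 0.48 and an adjusted p of 0.0963. The difference between Col4a1 and Col4a2 was not tested.

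Col4a4 encodes a chain best known from the kidney filter, and Col4a6 a chain of some epithelial and smooth muscle basement membranes. Col4a4 stood at -0.76, -0.48 and -0.92 in NZO islets and at -0.62, -1.51 and -1.63 in B6-ob/ob islets. Col4a6 stood at -3.29, -2.99 and -3.29 in NZO islets and at -2.74, -3.69 and -3.82 in B6-ob/ob islets. In both, B6-ob/ob replicate 4 lay within or above the NZO range. The differences were 0.53 ± 0.29 for Col4a4 (SE; limma adjusted p = 0.251) and 0.23 ± 0.30 for Col4a6 (limma adjusted p = 0.642). Without B6-ob/ob replicate 4, Col4a4 differed by 0.85 (limma adjusted p = 0.0211). Col4a3 and Col4a5 were well above background on at most 1 array and were not tested.

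Among fibril-associated collagens, 6 of 9 genes were tested and 2 were higher in NZO, against 13.2% of all genes tested. Of the 4 well above background on all 6 arrays, 1 was higher, against 1706 of 14796 of all genes. The median difference over the 6 was 0.60. Col14a1, whose product binds the surface of collagen fibrils and interacts with decorin, stood at 0.63, 0.13 and 0.77 in NZO islets and at -1.97, -2.46 and -2.60 in B6-ob/ob islets. The strains were far apart and about equally tight. The difference was 2.85 ± 0.24 (SE; limma adjusted p = 0.000794), or 7.23-fold. Col9a3, a chain of type IX collagen of cartilage, stood at -4.14, -3.46 and -4.76 in NZO islets and at -5.73, -6.41 and -5.93 in B6-ob/ob islets, where it was well above background on 0 of 3 arrays. With the processing used here it was at least 2.51-fold higher in NZO (1.33 on the log2 scale). This untested bound sets NZO signal against the higher of the dimmest detected signal of a B6-ob/ob array and the probe's own. The fitted difference of Col9a3 was 1.91 (limma adjusted p = 0.0129). The gene passed the filter through NZO alone and was bound to differ. With normexp background correction and quantile normalisation together the difference was 0.32, below that bound (limma adjusted p = 0.117). Without B6-ob/ob replicate 5 it was 1.71 (limma adjusted p = 0.0538).

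Col16a1, which is found near small fibrils and cell surfaces, stood at 1.64, 1.81 and 1.80 in NZO islets and at 2.76, 1.36 and 1.07 in B6-ob/ob islets. Its NZO arrays lay inside the B6-ob/ob range, and the difference was 0.02 ± 0.43 (SE; limma adjusted p = 0.982). Col20a1 stood at -1.58, -1.12 and -1.23 in NZO islets and at -1.76, -1.84 and -1.57 in B6-ob/ob islets. Col9a2, another chain of type IX collagen, stood at -3.59, -3.09 and -2.62 in NZO islets and at -2.64, -2.92 and -2.49 in B6-ob/ob islets. Both overlapped between strains, with differences of 0.41 ± 0.16 for Col20a1 (SE; limma adjusted p = 0.120) and -0.42 ± 0.26 for Col9a2 (limma adjusted p = 0.320). Col19a1 was well above background on 3 NZO and 2 B6-ob/ob arrays and differed by 0.78 ± 0.49 (SE; limma adjusted p = 0.321). Without B6-ob/ob replicate 5 its difference was 1.37 (limma adjusted p = 0.0173). Col12a1 and Col22a1 were well above background on at most 1 array, Col9a1 on none, and these 3 genes were not tested.

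Of the other types, 10 of 15 genes were tested and 8 were higher in NZO, against 13.2% of all genes tested. Those 8 include Col29a1 and Col23a1, which passed the filter through NZO alone. Among the other-type genes well above background on all 6 arrays, 6 of 8 were higher, against 1706 of 14796 of all genes. The median difference over the 10 was 2.43. Col6a1 and Col6a2 encode chains of type VI collagen, which forms beaded filaments around cells. Col6a1 stood at 0.27, 0.12 and 0.48 in NZO islets and at -1.91, -2.34 and -2.56 in B6-ob/ob islets. Col6a2 stood at -1.11, -1.31 and -1.07 in NZO islets and at -2.92, -3.55 and -3.90 in B6-ob/ob islets. Neither gene overlapped between strains, and B6-ob/ob replicate 4 was the nearest to NZO in both. The differences were 2.56 ± 0.20 for Col6a1 (SE; limma adjusted p = 0.000636) and 2.30 ± 0.26 for Col6a2 (limma adjusted p = 0.00214), or 5.88-fold and 4.91-fold. With normexp background correction and quantile normalisation together, Col6a2 differed by 1.26.

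The probe named Col29a1 reads the gene that RefSeq calls Col6a5, a further chain of type VI collagen. It stood at -1.01, -1.06 and -0.56 in NZO islets and at -6.75, -7.66 and -7.77 in B6-ob/ob islets, where it was well above background on 0 of 3 arrays. The signal was thus measured in NZO alone, and no other collagen gene had so wide a fitted difference. With the processing used here it was at least 23.7-fold higher in NZO (4.57 on the log2 scale), a bound with no test. The fitted difference was 6.52 (limma adjusted p = 0.00014). The gene passed the filter through NZO alone and was bound to differ. The difference became 2.26, below that bound, with normexp background correction and quantile normalisation together. The probe lies at chr9:105765145-105766504 on the minus strand of mm9, an interval longer than its 60 bases. Col6a3, which encodes the chain that usually completes type VI collagen, has 2 probes, both well above background on 0 of 6 arrays, and was not tested.

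Col7a1 encodes the collagen of anchoring fibrils, which tie epithelial basement membranes to the tissue below. It stood at 0.45, 1.01 and 0.71 in NZO islets and at -1.32, -0.91 and -0.82 in B6-ob/ob islets. The strains did not overlap, and here B6-ob/ob replicate 4 was the farthest from NZO. The difference was 1.74 ± 0.20 (SE; limma adjusted p = 0.00252), or 3.34-fold. Col8a1 and Col8a2 encode short-chain collagens that form networks in vessel walls and beneath the corneal endothelium. Col8a1 stood at 2.52, 2.66 and 2.37 in NZO islets and at 0.42, -0.06 and -0.64 in B6-ob/ob islets. Col8a2 stood at -3.84, -4.13 and -3.19 in NZO islets and at -4.38, -4.55 and -4.57 in B6-ob/ob islets. Neither overlapped between strains, but only Col8a1 was called, with a difference of 2.61 ± 0.27 (SE; limma adjusted p = 0.00167), while Col8a2 differed by 0.78 ± 0.25 (limma adjusted p = 0.0725). Without NZO replicate 12, Col8a2 differed by 0.51.

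Col15a1 and Col18a1 encode multiplexins, collagens of the basement membrane zone that carry sugar chains, and a fragment of the Col18a1 product is endostatin. Col18a1 stood at 2.71, 2.82 and 2.23 in NZO islets and at 0.68, -0.24 and -0.64 in B6-ob/ob islets. Col15a1 stood at -0.32, -0.71 and -0.48 in NZO islets and at -1.04, -1.83 and -1.84 in B6-ob/ob islets. Both were above in all NZO arrays, by the wider gap in Col18a1. The differences were 2.65 ± 0.36 for Col18a1 (SE; limma adjusted p = 0.00414) and 1.07 ± 0.25 for Col15a1 (limma adjusted p = 0.0279). The Col15a1 call was lost when any single array other than B6-ob/ob replicate 4 was left out, with differences of 0.93 to 1.17 and adjusted p of 0.0604 to 0.103.

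Col13a1 and Col23a1 encode collagens that span the cell membrane. Col13a1 stood at 1.89, 1.89 and 1.95 in NZO islets and at 1.57, 1.93 and 1.67 in B6-ob/ob islets. The strains overlapped, and the difference was 0.19 ± 0.13 (SE; limma adjusted p = 0.363). Col23a1 stood at -4.33, -4.21 and -4.03 in NZO islets and at -7.08, -6.64 and -6.74 in B6-ob/ob islets, where it was well above background on 0 of 3 arrays. With the processing used here it was at least 2.39-fold higher in NZO (1.26 on the log2 scale), a bound with no test. The fitted difference was 2.63 (limma adjusted p = 0.000299). The gene passed the filter through NZO alone and was bound to differ. With normexp background correction and quantile normalisation together the difference was 0.36, below that bound (limma adjusted p = 0.0318). Col10a1 and Col25a1 were well above background on at most 1 array, Col17a1 and Col28a1 on none, and these 4 genes were not tested.

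**Figure D2:**
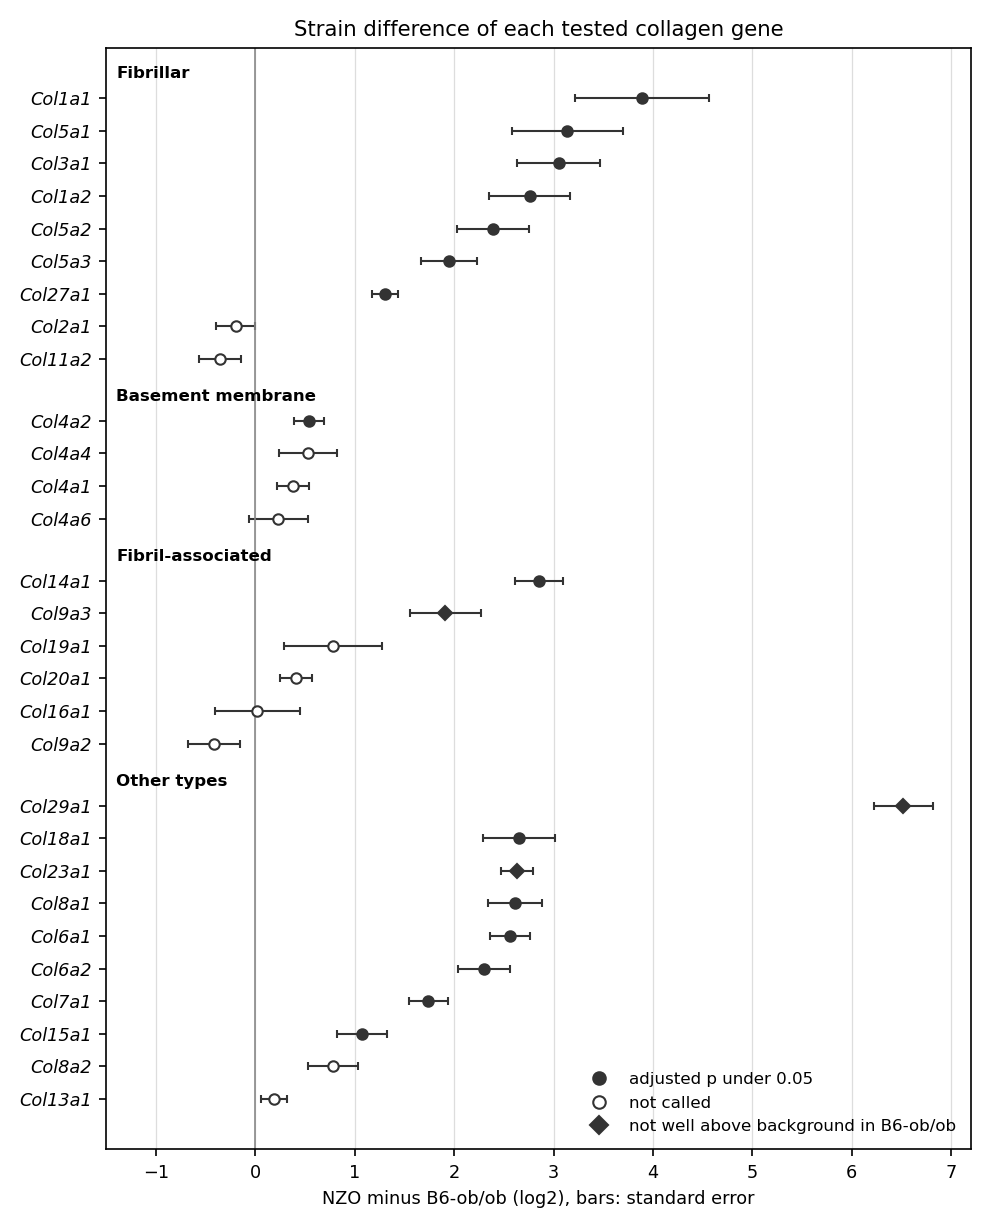
Difference between strains for each tested collagen gene, NZO minus B6-ob/ob on the log2 scale, with standard errors. Filled symbols mark 18 genes with an adjusted p under 0.05, all on the positive side, and diamonds mark Col9a3, Col29a1 and Col23a1, which were not well above background on any B6-ob/ob array and whose drawn value is the fitted one.

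Several collagen genes were read by more than 1 probe, which gives a second look at the same transcript. Of 43 kept probes, 28 were higher in NZO and 0 were lower. Limma was fitted and adjusted over all 24627 kept probes, of which 11.5% were higher and 10.3% were lower. The 28 include probes of Col9a3, Col29a1, Col23a1, Col8a1 and Col4a6 that passed the filter through NZO alone. At an unadjusted p under 0.05, 1 kept collagen probe was lower, the Col11a2 probe printed above. A pair of kept probes was held by 14 genes. The call was shared in 10 of them, with both probes higher in 7 and neither called in 3, and the sign was shared in 12. For Col1a1 the probes differed by 3.89 and 3.78 between strains, and for Col18a1 by 2.65 and 2.69. The dimmer probe of Col8a1 was well above background on 0 B6-ob/ob arrays and differed by 3.13 (limma adjusted p = 0.00463). Its untested bound was at least 5.57-fold higher in NZO. That probe and both kept Col23a1 probes passed the filter through NZO alone and were bound to differ.

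The call differed between probes in Col5a1, Col4a4, Col4a6 and Col2a1. The Col5a1 probe with the glycine repeat, printed above, stood at -5.13, -4.60 and -4.86 in NZO islets and at -4.45, -5.55 and -5.52 in B6-ob/ob islets. Its strains overlapped, and its difference of 0.31 ± 0.33 (SE; limma adjusted p = 0.557) stands beside 3.14 at the brighter probe. The dimmer Col4a6 probe was well above background on 3 NZO and 0 B6-ob/ob arrays, so it passed the filter through NZO alone and was bound to differ. Its untested bound was at least 4.27-fold higher in NZO. Its fitted difference was 3.62 (limma adjusted p = 0.000827), beside 0.23 at the brighter probe. The dimmer Col4a4 probe differed by 1.72 ± 0.30 (limma adjusted p = 0.00947), beside 0.53.

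The Col2a1 probes share 40 of their 60 bases. The dimmer of them stood at -3.56, -3.54 and -3.17 in NZO islets and at -4.77, -6.51 and -6.45 in B6-ob/ob islets, where it was well above background on 1 of 3 arrays. Its strains did not overlap, and it differed by 2.49 ± 0.47 (SE; limma adjusted p = 0.0137), beside -0.20 at the brighter probe. The printed Col11a2 probe was well above background in B6-ob/ob alone, with a difference of -1.38 ± 0.50 (limma adjusted p = 0.102). It passed the filter through B6-ob/ob alone and was not called, and its untested bound stood at 1.78-fold lower in NZO islets. Differences between probes of a gene were not tested. Of 28 genes with several probes, the probe farthest downstream was well above background on more arrays in 15, on equally many in 8 and on fewer in 5.

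**Figure D3:**
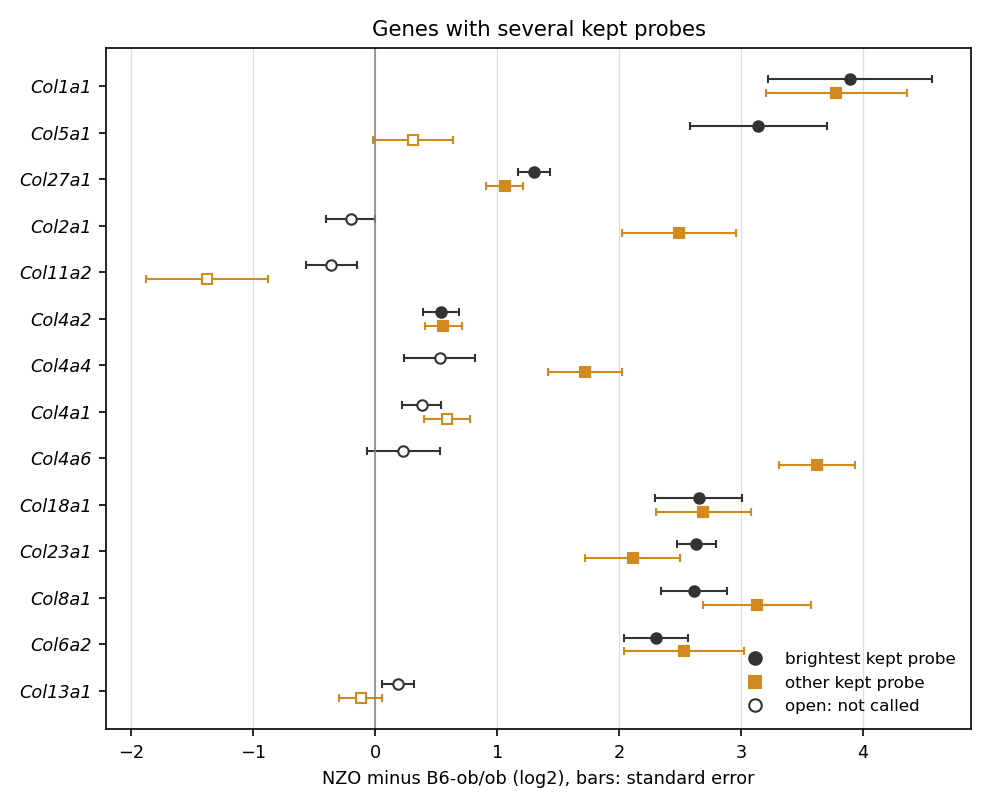
Strain difference of both kept probes of 14 collagen genes, NZO minus B6-ob/ob on the log2 scale, with standard errors. Circles are the brightest probe and squares the other, and filled symbols have an adjusted p under 0.05. Pairs coincide at Col1a1, Col4a2 and Col18a1 and lie apart at Col5a1, Col2a1, Col4a4 and Col4a6.

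Collagen levels varied more among B6-ob/ob than among NZO arrays. The median SD over the 29 genes was 0.18 in NZO and 0.46 in B6-ob/ob islets, against 0.17 and 0.22 over all genes tested. The B6-ob/ob SD was the greater in 20 of the 29, against 9667 of all 16417. By class, it was greater in 6 of 9 fibrillar, 4 of 4 basement membrane, 2 of 6 fibril-associated and 8 of 10 other genes. B6-ob/ob replicate 4 was the highest of its strain at 22 of 29 collagen genes, against 7320 of all 16417. The mean over the 29 collagen genes was -0.29, -0.20 and -0.20 on NZO arrays 10, 11 and 12, against -1.47, -1.98 and -2.22 on B6-ob/ob arrays 4, 5 and 6. Fibrillar genes averaged 0.50, 0.62 and 0.56 on NZO arrays, against -0.73, -1.58 and -1.97 on B6-ob/ob arrays. Basement membrane genes averaged 0.17, 0.18 and 0.11 on NZO arrays, against 0.18, -0.44 and -0.54 on B6-ob/ob arrays, so that B6-ob/ob replicate 4 stood at the NZO level. NZO replicate 10 shared slide 2 with B6-ob/ob replicate 4, and NZO replicate 11 shared slide 3 with B6-ob/ob replicates 5 and 6. NZO replicate 12 was alone of these samples on slide 1. The median collagen difference was 1.26 within slide 2 and 1.88 within slide 3, and 17 genes were called with slide as a fixed block. Col4a4 differed by -0.13 and Col4a6 by -0.54 within slide 2, against 1.08 and 0.77 within slide 3.

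Many markers of stellate, acinar and ductal cells were higher in NZO, as many collagens were. Among all genes tested 13.2% were higher, and so were 1706 of the 14796 well above background on all 6 arrays. For stellate cells, pericytes and fibroblasts, 11 of 13 tested markers were higher in NZO, and 8 of the 10 that were well above background on all 6 arrays. Their mean level was 0.57, 0.48 and 0.73 on NZO arrays, against -0.67, -1.36 and -1.75 on B6-ob/ob arrays. Pdgfra, which marks fibroblasts and stellate cells, was well above background on 3 NZO and 0 B6-ob/ob arrays. Acta2, the smooth muscle actin gene, stood at 2.71, 2.89 and 2.86 in NZO and at 2.86, 2.91 and 2.87 in B6-ob/ob islets. Acinar markers, of digestive enzyme cells, were higher in 11 of 13, and in 10 of 12 on all 6 arrays, and averaged 4.99 to 5.60 on NZO arrays, against 2.52 to 3.94 on B6-ob/ob arrays. Ductal markers were higher in 6 of 9, with means of 0.18 to 0.69 in NZO, against -2.40 to -0.98 in B6-ob/ob islets, where Cftr and Muc1 were well above background on 0 arrays. Of the 6 ductal markers well above background on all 6 arrays, 3 were higher. B6-ob/ob replicate 4 had the highest mean of its strain for the stellate, acinar and ductal lists alike.

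Beside the 13.2% of all genes tested that were higher in NZO, endothelial markers were higher in 4 of 13, with means of 1.65 to 1.93 in NZO, against 0.98 to 1.41 in B6-ob/ob islets. Macrophage markers were higher in 3 of 6, with means of -0.59 to -0.04 in NZO, against -1.48 to -1.44 in B6-ob/ob islets. Schwann cell markers were higher in 2 of 4, with means of -2.21 to -2.02 in NZO, against -3.47 to -2.91 in B6-ob/ob islets. Islet endocrine markers, which check the labelled tissue, were well above background on all 6 arrays at 9 of 9 genes, and 0 were higher and 1 lower in NZO. Their mean was 6.57 to 6.68 in NZO, against 6.51 to 6.76 in B6-ob/ob islets. The part of any of these cell types in the collagen differences was not tested.

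**Figure D4:**
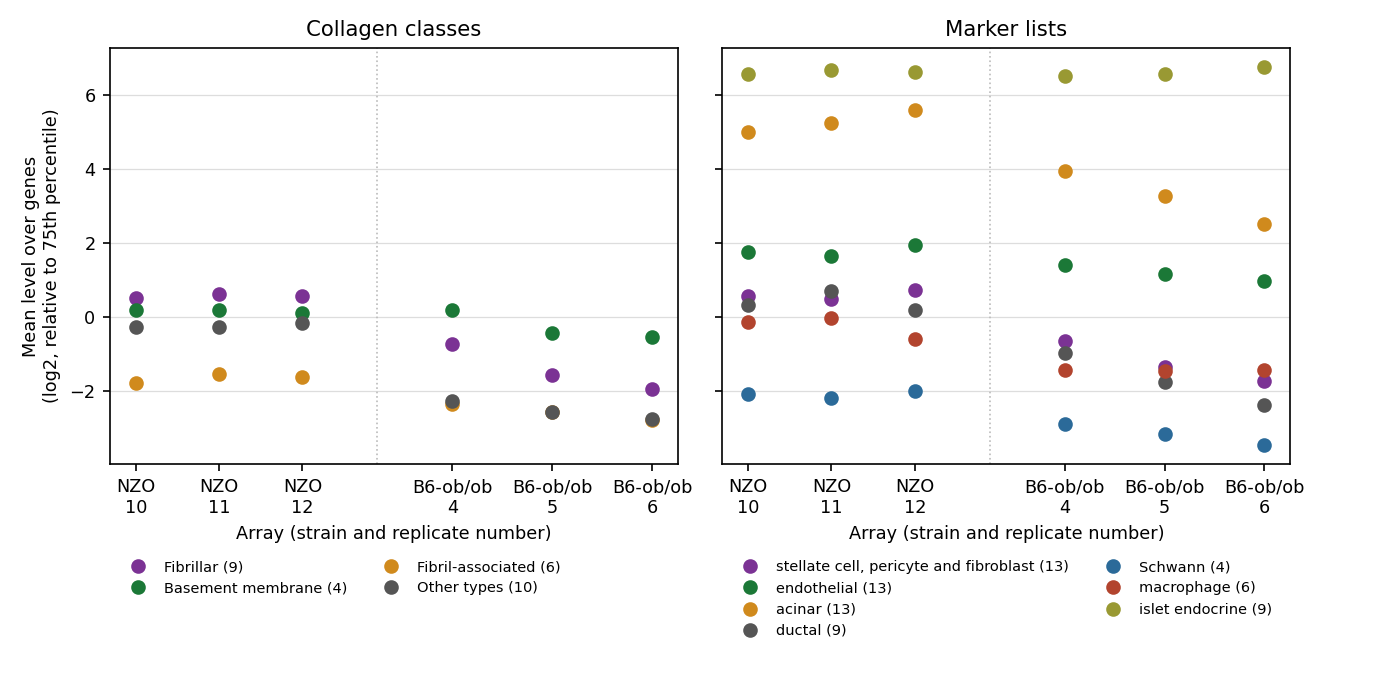
Mean level on each array, as log2 intensity relative to the 75th percentile, over the tested genes of each collagen class (left) and of each marker list (right), with the number of genes in brackets. B6-ob/ob arrays lie below NZO arrays for every collagen class except basement membrane and for every marker list except the endocrine one. Endocrine markers are level across all 6 arrays.

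Genes that bind, process and degrade collagen were counted from 4 lists. Of 11 tested matrix partners, 8 were higher in NZO, and so were 7 of the 10 that were well above background on all 6 arrays. The same shares over all genes were 13.2%, and 1706 of 14796. The median difference of the 11 was 1.88. Lumican (Lum), a small proteoglycan that spaces fibrils, stood at 1.62, 1.47 and 2.02 in NZO islets and at -0.78, -1.96 and -2.98 in B6-ob/ob islets. It differed by 3.61 ± 0.54 (SE; limma adjusted p = 0.00574). Prelp, which anchors basement membranes to connective tissue, differed by 3.21, and Ogn, another small leucine-rich protein of the matrix, by 3.02. Tenascin X (Tnxb), which organises fibrils, stood at 0.29, 0.39 and 0.26 in NZO islets and at -2.24, -2.46 and -2.44 in B6-ob/ob islets. It differed by 2.69 ± 0.12 (limma adjusted p = 0.000117), and its arrays were tight in both strains.

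Of 25 tested genes for collagen modification, folding and processing, 5 were higher and 2 lower in NZO, against 13.2% and 9.00% of all genes tested, and the median difference was 0.02. The called members are given here as single genes. Adamts2, which cuts the amino-terminal propeptide from procollagen, stood at 1.34, 1.33 and 1.66 in NZO islets and at -1.0, -2.47 and -3.02 in B6-ob/ob islets. It differed by 3.61 ± 0.50 (SE; limma adjusted p = 0.0045). Loxl1, a cross-linking enzyme, differed by 2.43 ± 0.46 (limma adjusted p = 0.0136). Pcolce, which speeds removal of the carboxy-terminal propeptide, differed by 1.90 ± 0.32 (limma adjusted p = 0.00885). Fkbp10, a folding factor of the endoplasmic reticulum, differed by 1.33, and Plod2, a lysyl hydroxylase named after its values were seen to complete the 5, by 1.02. Colgalt1 (Glt25d1 in the files), which adds galactose to hydroxylysine, stood at 0.24, 0.28 and 0.24 in NZO islets and at 1.24, 1.16 and 1.06 in B6-ob/ob islets. It differed by -0.90 ± 0.11 (limma adjusted p = 0.00249). P3h2 (Leprel1 in the files), a prolyl hydroxylase known to act on type IV collagen, differed by -0.78 ± 0.18 (limma adjusted p = 0.029).

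Of 4 tested collagen-degrading enzymes, 3 were higher in NZO, and 1 of the 2 well above background on all 6 arrays. The same shares over all genes were 13.2%, and 1706 of 14796. Mmp2, a gelatinase, stood at -1.33, -1.72 and -0.54 in NZO islets and at -3.95, -5.71 and -5.96 in B6-ob/ob islets, with 1 of 3 B6-ob/ob arrays well above background. It differed by 4.01 ± 0.58 (SE; limma adjusted p = 0.00536). Mmp14, the membrane protease that activates the Mmp2 product, differed by 2.53 ± 0.19 (limma adjusted p = 0.000601), and Ctsk, a cathepsin that cuts collagen, by 2.30 ± 0.32 (limma adjusted p = 0.00471). Of 8 tested receptors, 2 were higher, and 0 of the 6 that were well above background on all 6 arrays. These counts stand beside the same 13.2%, and 1706 of 14796, of all genes. With the fit repeated on probes well above background on all 6 arrays, 1 receptor was higher. The median difference of the 8 was 0.28. Itga11, an integrin chain of fibroblasts that binds type I collagen, differed by 4.95 ± 0.70 (limma adjusted p = 0.00476), and Mrc2, which takes up collagen fragments, by 2.50 ± 0.43 (limma adjusted p = 0.00981). Both were well above background on 3 NZO arrays and 1 B6-ob/ob array.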

How the data were processed

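Each deposited scanner file gives a linear intensity for every spot. Per the file headers background subtraction and detrending were done array by array in Agilent Feature Extraction, version 10.5.1.1, whereas the submitters' processing notes give version 9.1. The authors' deposited value table, also an intensity, served only as an alternative: its column medians are 21.3, 21.4 and 21.4 under NZO labels and 22.1, 21.4 and 22.4 under B6-ob/ob labels, it is linear and not centred, its direction is unsettled, and its normalisation is not given in the sources used here. Control spots and 61 to 76 flagged spots per array were left out. Processed intensities were put on the log2 scale, averaged per probe, and reduced by the 75th percentile of their array. Probes called well above background on 3 or more of 6 arrays were kept (24627 of 41174), and a gene name was read by its brightest kept probe. Names came from the files, updated through RefSeq by accession for 25089 probes, symbol for 6339 and synonym for 1639, with 8107 kept as given. Probe positions are on mm9, per the file headers.

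The strain test was limma's moderated one (version 3.58.1, R 4.3.3; lmFit, eBayes, two-sided). P-values were adjusted by Benjamini-Hochberg over all 16417 genes tested, and 0.05 was the threshold. The scripts were checked on simulated data. Every member was accounted for: values by array are given for members that were called or well above background on all 6 arrays or in 1 strain only, and up to 4 called genes in each direction are named per pathway list. Pdgfra, Acta2, Cftr, Muc1 and Plod2 were named after their values were seen. The members, the 4 pathway lists and the 7 marker lists were chosen with earlier results of these data known. One marker of the endocrine list is not reported here. Alternatives covered background correction, scaling, the filter, the gene summary, slide, prior variance, array weights, the value table and each array left out. Normexp background correction added an offset of 50 to intensities before the log2 step, and its effect on dim probes was not tested.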

Additional observations from a re-analysis of the deposited data

How the results depend on the processing

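Under 17 alternatives with a test, between 15 and 22 collagen genes were higher in NZO and 0 were lower, against 18 and 0 as reported. The number tested and the share of all genes called higher moved as well. The 15 were of 25 tested with all 6 arrays required (11.9% of all genes higher). The 22 were of 29 with array weights (22.0% of all genes). With no filter, 18 of 41 were higher (6.78% of all genes). At an unadjusted p under 0.05, limma gave 0 or 1 lower. Of the 18 reported genes, 15 were called in every alternative that tested them. The exceptions were Col4a2 in 9 of 17, Col15a1 in 11 of 17 and Col9a3 in 14 of 16. The median difference of 1.74 was 0.78 with normexp and quantile normalisation, 1.07 with no filter on dim probes, 1.30 over genes above background on all 6 arrays and 1.26 within slide 2. The 1 basement membrane call became 0 with median scaling, no filter or slide as a fixed block, 3 with the mean of a gene's probes or array weights and 2 in the value table with its sign turned, and ranged from 0 to 2 with 1 array left out. The 2 fibril-associated calls became 1 with normexp and quantile normalisation, with all 6 arrays required and in the value table. With all 6 arrays required, receptor calls went to 1, against 2, and degrading enzyme calls to 1, against 3. With 1 array left out, processing calls ranged from 3 to 6 and matrix partner calls from 5 to 10. Signs turned for Col16a1, at -0.06 with median scaling, -0.14 with slide as a fixed block and -0.31 to 0.53 with 1 array left out, for Col19a1 at -0.11 with array weights, and for Col2a1 at 1.14 with the mean of its probes and 0.70 in the value table. Within slides, uncalled genes also turned: Col4a4 at -0.13, Col4a6 at -0.54 and Col16a1 at -1.12 in slide 2, and Col2a1 at 0.20 in slide 3. The mean of probes takes in the dimmer Col2a1 probe. Some calls went because the called probe was no longer tested. With all 6 arrays required this held for Col9a3, Col23a1, Col29a1, Itga11, Mrc2, Mmp2 and Ctsk, and in the value table for Col14a1 and Col3a1. The cause of the other changes was not tested. Median scaling moved the median of all genes to -0.11. No paired analysis was possible because the strains share no replicate number; shared slides were covered by the slide block and the within-slide values. With 3 arrays a strain and dim probes near background, small differences and B6-ob/ob levels of dim genes are the least certain.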
